A study of Mus musculus with 12 samples.

Results

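Glia of the injured retina enter a state called reactive gliosis, and the genes described here are 8 that are commonly read as its markers: Gfap, Vim, Nes, Edn2, Ednrb, Cd44, S100a6 and Anxa2. They were taken by exact match of these names in the deposited gene table, which found each name once, so the set holds 8 of 55487 genes. Müller glia span the retina from its inner to its outer surface, and after injury they build up intermediate filaments, enlarge and change what they secrete. Gfap, Vim and Nes encode the filament proteins GFAP, vimentin and nestin. Edn2 encodes endothelin 2, a secreted peptide that injured photoreceptors can make, and Ednrb encodes a receptor for it on glia. Cd44 encodes a surface receptor for hyaluronan, S100a6 a small calcium-binding protein and Anxa2 a membrane-binding annexin. In the mouse genome (GRCm38, Ensembl identifiers as in the files) Gfap (ENSMUSG00000020932) lies at chr11:102887336-102900912 on the minus strand, Vim (ENSMUSG00000026728) at chr2:13573927-13582826 on the plus strand and Nes (ENSMUSG00000004891) at chr3:87971078-87980451 on the plus strand. Edn2 (ENSMUSG00000028635) lies at chr4:120161206-120167360 on the plus strand and Ednrb (ENSMUSG00000022122) at chr14:103814625-103844402 on the minus strand. Cd44 (ENSMUSG00000005087) lies at chr2:102811141-102901665 on the minus strand, S100a6 (ENSMUSG00000001025) at chr3:90612882-90624181 on the plus strand and Anxa2 (ENSMUSG00000032231) at chr9:69453620-69491795 on the plus strand. Several of the 8 are also made by astrocytes, blood vessels and leukocytes, and RNA of whole tissue does not show which cells a transcript came from.

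The 12 libraries of mouse retina fall into 6 groups of 2. WT retinas came from C57BL/6J mice and JNK3 KO retinas from Jnk3-/- mice. The shPax6 retinas came from wild-type mice that received an AAV2.7m8 vector with a U6-driven short hairpin RNA against Pax6 and GFP. WT, shPax6 and JNK3 KO are called genotypes here for short, although shPax6 is a vector given to wild-type mice. Each genotype was injected into the vitreous with 1 μL of PBS or with the same volume of 40 mM NMDA (40 nmol), an agonist that overstimulates glutamate receptors of inner retinal neurons. The time from injection to harvest is not given in the sources used here. The mice were adults. No library from retinas with the shScramble control vector was used here, so infection and knockdown cannot be told apart in the shPax6 groups. Each library pooled RNA from several retinas, and nothing states that the 2 libraries of a group came from separate animals, so p-values measure only the spread between these libraries. The share of retinal cells that carried the vector was not measured here.

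The RefSeq sequences around the transcription start (GRCm38.p6, 250 bases before it and 50 after it) are shown for 4 of the 8. Gfap and Anxa2 are the members whose window held either motif searched. Edn2 and Ednrb are the ligand and receptor, with their highest levels in different groups. The motifs were TGANTCA, the site of AP-1, a dimer of Jun and Fos factors, and TTCNNNGAA, the site of STAT factors, where N is any base. JNK kinases phosphorylate Jun. Both were searched on both strands and both are palindromic. Capitals mark a match, and the other letters are lower case. The windows are chr11:102897151-102897450 on the minus strand for Gfap, chr9:69453433-69453732 on the plus strand for Anxa2, chr4:120160956-120161255 on the plus strand for Edn2 and chr14:103843652-103843951 on the minus strand for Ednrb.
Gfap: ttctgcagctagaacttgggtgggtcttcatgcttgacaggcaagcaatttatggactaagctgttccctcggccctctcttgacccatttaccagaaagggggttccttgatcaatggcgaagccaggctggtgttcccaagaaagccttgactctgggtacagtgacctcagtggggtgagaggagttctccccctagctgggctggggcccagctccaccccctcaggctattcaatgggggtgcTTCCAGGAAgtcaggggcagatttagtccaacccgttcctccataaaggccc
Anxa2: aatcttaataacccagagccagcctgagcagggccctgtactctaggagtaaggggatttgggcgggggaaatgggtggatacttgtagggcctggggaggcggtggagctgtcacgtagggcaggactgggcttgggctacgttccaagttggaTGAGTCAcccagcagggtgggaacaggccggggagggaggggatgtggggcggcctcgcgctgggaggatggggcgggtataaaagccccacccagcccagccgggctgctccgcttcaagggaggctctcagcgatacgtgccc
Edn2: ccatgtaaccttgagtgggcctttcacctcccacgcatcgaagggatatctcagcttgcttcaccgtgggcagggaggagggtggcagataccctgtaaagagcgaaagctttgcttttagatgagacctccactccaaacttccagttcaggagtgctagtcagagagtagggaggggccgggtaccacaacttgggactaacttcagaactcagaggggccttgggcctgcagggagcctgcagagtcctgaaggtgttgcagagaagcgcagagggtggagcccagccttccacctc
Ednrb: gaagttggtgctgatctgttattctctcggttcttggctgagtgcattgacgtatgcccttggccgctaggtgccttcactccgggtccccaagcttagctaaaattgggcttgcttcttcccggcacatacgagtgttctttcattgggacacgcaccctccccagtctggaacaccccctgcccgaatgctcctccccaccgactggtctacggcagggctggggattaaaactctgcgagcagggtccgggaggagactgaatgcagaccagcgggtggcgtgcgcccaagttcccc
In Gfap the STAT match began 2 bases before the start, at position -2, and in Anxa2 the AP-1 match began at position -95. Vim, Nes, Cd44 and S100a6 held neither motif in their windows. Of 32851 RefSeq promoter windows of this length, 7.81% held the AP-1 letters and 8.30% the STAT letters, so 1 match of each kind among 8 genes describes these windows only.

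The deposited values are FPKM, fragment numbers scaled to transcript length and library size. No read counts came with them, and the depth behind each value is unknown. Over the 16471 genes tested, libraries of the same group differed by a median of 0.112 to 0.252 on the log2 scale, whichever library was higher. The WT NMDA libraries stood apart in scale: their FPKM summed to 805627 and 820180, against 541210 to 576922 in the other 10 libraries. They also differed by transcript length. After NMDA in WT the median log2 difference was 0.84 over the 3449 genes with a leading transcript of at most 1000 bases and -0.99 over the 3323 genes of 4000 to 8000 bases, while the same medians were 0.19 and -0.03 in shPax6 and -0.10 and 0.11 in JNK3 KO. As a check of the labels, Pax6 had 173.48 and 177.3 FPKM in WT PBS against 94.56 and 92.84 in shPax6 PBS, while under NMDA it had 55.42 and 53.81 in WT against 67.52 and 58.73 in shPax6. Mapk10, which encodes JNK3, had 42.79 and 50.72 FPKM in WT PBS against 9.47 and 8.75 in JNK3 KO PBS, while under NMDA it had 8.98 and 6 in WT against 6.65 and 13.77 in JNK3 KO. The targeted genes thus match the labels under PBS. Under NMDA neither gene was lower than in WT. Pax6 was higher in the libraries labelled shPax6 than in WT (log2 0.21, SE 0.07, adjusted p = 0.0275 by limma). The Mapk10 values of WT and JNK3 KO overlapped (log2 0.38, adjusted p = 0.398). Both genes fell after NMDA in WT itself (log2 -1.68 for Pax6 and -2.65 for Mapk10), while Mapk10 in JNK3 KO was at 0.07. The comparison with WT therefore cannot check the labels under NMDA. Names of NMDA groups below mean the libraries so labelled. The part of the scale and length differences in the results below was not tested. The values of the 8 genes were recomputed under 4 other scalings, and those of transcripts, gene lists and marker sums were not.

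All 8 genes exceeded a mean of 1 FPKM in some group, the filter for testing. A gene is called when its adjusted p from limma, over all genes tested, is under 0.05 and its absolute log2 difference exceeds 1, on the scale log2(FPKM + 0.1). After NMDA in WT, Vim, Nes, Edn2, S100a6 and Anxa2 were called up, Ednrb and Gfap had smaller differences in opposite directions, and Cd44 was nearly level. In shPax6 retinas 7 of the 8 were called up, all but Edn2. In JNK3 KO retinas only Cd44, Ednrb and Nes were called up, while S100a6 was at a lower level after NMDA. The members' counts stand against a background of 14.2% of tested genes called up and 20.9% called down in WT, 8.64% up and 4.94% down in shPax6, and 0.777% up and 1.87% down in JNK3 KO. The median log2 difference of the 8 was 1.453 in WT, 1.71 in shPax6 and 0.46 in JNK3 KO, beside medians over all tested genes of -0.09, 0.10 and -0.01.

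**Figure D1:**
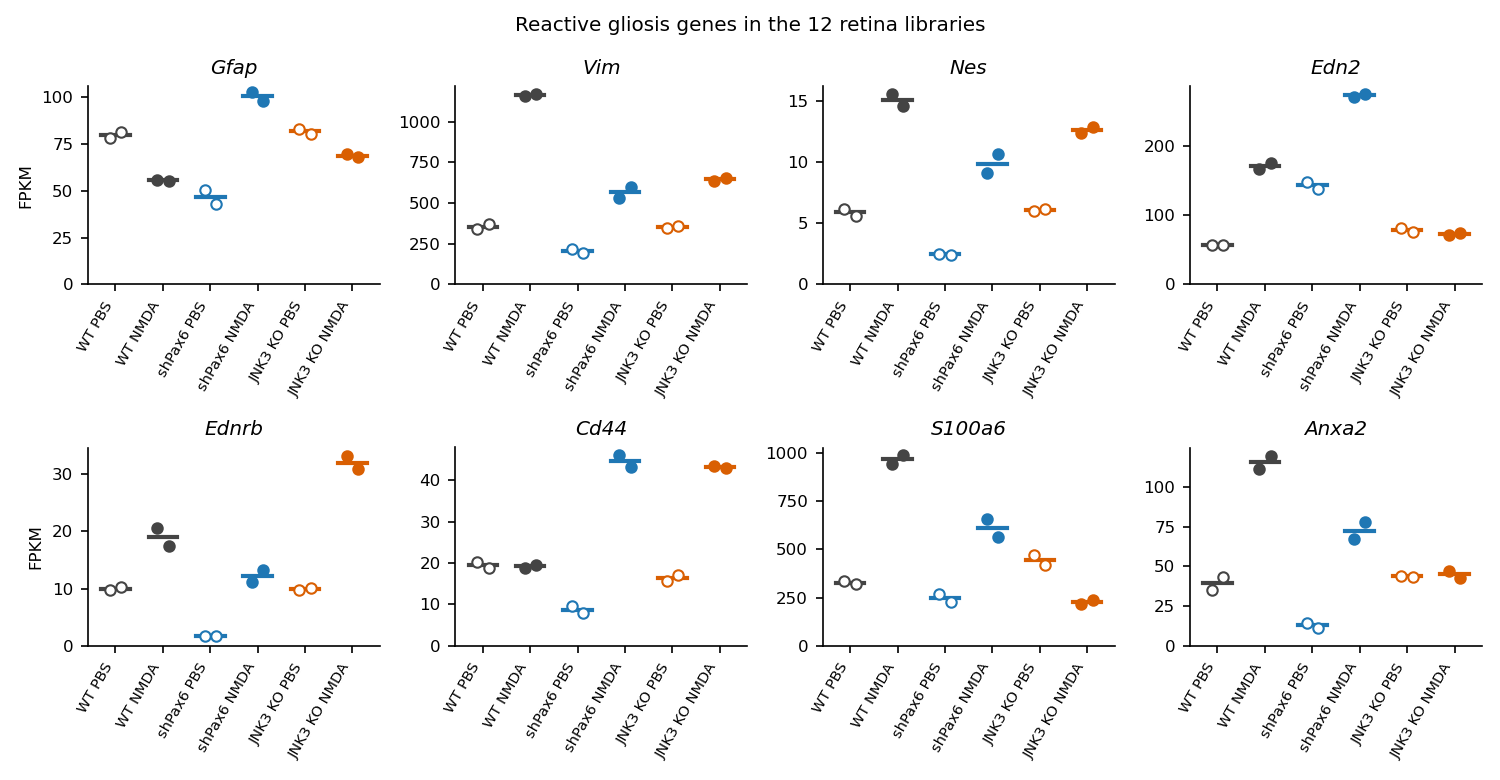
FPKM (vertical axis, from 0) of each of the 8 genes in the 12 libraries, by group (horizontal axis), with open points for PBS, filled points for NMDA and a bar at the mean of 2 libraries. Vim and S100a6 reach their highest levels in WT NMDA (up to 1169.43 and 989.78 FPKM), Gfap and Edn2 in shPax6 NMDA (up to 102.98 and 275.14), and Ednrb in JNK3 KO NMDA (up to 33.1).

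Of the filament genes, Gfap, whose protein is the classical sign of gliosis, had a response that differed in direction between genotypes. Its level in WT was 78.01 and 81.59 FPKM under PBS and 55.74 and 55.3 under NMDA. In shPax6 retinas it was 50.36 and 42.86 FPKM under PBS and 102.98 and 97.8 under NMDA. JNK3 KO retinas held 83.16 and 80.32 FPKM under PBS and 69.49 and 68.19 under NMDA. The NMDA libraries were thus lower than the PBS libraries in WT and in JNK3 KO and higher in shPax6, with no overlap within a genotype. The log2 difference in WT was -0.52 (SE 0.08, adjusted p = 0.000284), inside the fold limit and so not called. On TPM it was -1.10 and called, and with quantile normalization -0.91 and not called. Gfap rose in shPax6 by 1.11 (SE 0.08, adjusted p = 1.17e-05), a 2.16-fold rise, and in JNK3 KO the difference was -0.25 (SE 0.08, adjusted p = 0.0766). The call in shPax6 was close to the fold limit: without shPax6 PBS replicate 2 the difference was 0.99, and it was 0.99 with 75th percentile scaling and 0.97 with the length correction.

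Vim, the filament gene of resting and reactive Müller glia alike, was, per length of transcript, the most abundant of the 8 in WT PBS, WT NMDA and JNK3 KO NMDA, and came after S100a6 in the other groups. Its gene value includes Vim-203, a retained-intron model of 535 bases, with 35.6% of the FPKM in WT PBS and 55.9% in WT NMDA. WT libraries contained 338.96 and 367.97 FPKM with PBS, and 1154.12 and 1169.43 with NMDA. The shPax6 libraries had 219.64 and 195.37 FPKM under PBS and 532.96 and 600.02 under NMDA. Those of JNK3 KO had 345.74 and 358.4 FPKM under PBS and 635.45 and 653.86 under NMDA. Every NMDA library was above every PBS library of any genotype. Vim rose 3.29-fold in WT (log2 1.72, SE 0.07, adjusted p = 1.47e-07) and 2.73-fold in shPax6 (log2 1.448, SE 0.07, adjusted p = 2.24e-06). The difference in JNK3 KO, 0.87 (SE 0.07, adjusted p = 0.000189), was within the fold limit. Quantile normalization left 0.38 of the WT difference, without a call, and brought that of JNK3 KO to 1.05, with a call.

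Nes, a filament gene of neural progenitors that reactive glia take up again, was the least abundant of the filament genes. WT libraries held 6.19 and 5.55 FPKM under PBS and 15.54 and 14.6 under NMDA. In shPax6 the values were 2.46 and 2.43 FPKM under PBS and 9.06 and 10.63 under NMDA. In JNK3 KO they were 5.98 and 6.12 FPKM under PBS and 12.36 and 12.81 under NMDA. All 6 NMDA libraries were above all 6 PBS libraries. Nes rose in WT (log2 1.35, SE 0.13, adjusted p = 1.64e-05), in shPax6 (log2 1.96, SE 0.13, adjusted p = 8.23e-06) and in JNK3 KO (log2 1.04, SE 0.13, adjusted p = 0.00137). Its transcript is long, 6126 bases, in a length class whose median fell in WT by 0.99, and the length correction raised its WT difference to 2.47. On TPM that difference was 0.78 and not called, and in JNK3 KO the call was lost with the length correction (0.89), with a pseudocount of 1 (0.95) and with one of 0.5 (0.998).

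The endothelin ligand and its receptor moved differently across the genotypes. Edn2 levels in WT were 56.87 and 56.9 FPKM with PBS, and 165.82 and 174.41 with NMDA. The shPax6 levels were 147.52 and 137.7 FPKM with PBS, and 270.33 and 275.14 with NMDA. The JNK3 KO levels were 81.8 and 75.28 FPKM with PBS, and 71.47 and 74.7 with NMDA. The shPax6 PBS libraries lay above both WT PBS libraries and below both WT NMDA libraries, and in JNK3 KO the 2 treatments lay next to each other. Edn2 rose 2.99-fold in WT (log2 1.58, SE 0.06, adjusted p = 8.11e-08), its difference in shPax6 was 0.94 (SE 0.06, adjusted p = 7.82e-06) and in JNK3 KO it was -0.10 (95% interval -0.24 to 0.03, adjusted p = 0.342). In WT the difference was 0.95 with quantile normalization and 0.99 with the length correction, without a call.

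Ednrb, the receptor, had levels in WT of 9.77 and 10.22 FPKM with PBS, and of 20.61 and 17.53 with NMDA. The shPax6 libraries held 1.8 and 1.78 FPKM under PBS and 11.08 and 13.2 under NMDA. The JNK3 KO libraries held 9.84 and 10.19 FPKM under PBS and 33.1 and 30.97 under NMDA. The receptor was lowest in shPax6 PBS, where the ligand without NMDA was highest, and highest in JNK3 KO NMDA, where the ligand was low. In WT and shPax6, however, both were higher after NMDA than with PBS, and WT NMDA had rank 2 of the 6 groups for both. Ednrb rose 6.45-fold in shPax6 (log2 2.69, SE 0.12, adjusted p = 1.4e-06) and 3.18-fold in JNK3 KO (log2 1.67, SE 0.12, adjusted p = 0.000107). The WT difference was 0.92 (SE 0.12, adjusted p = 0.000172), not called, and it ranged over the scalings from 0.35 on TPM and 0.84 with 75th percentile scaling, without a call, to 1.03 with quantile normalization and 1.54 with the length correction, with a call. Without WT NMDA replicate 2 it was 1.04 and called.

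Cd44 had 20.37 and 18.82 FPKM in WT PBS and 18.91 and 19.61 in WT NMDA. In shPax6 it had 9.57 and 7.91 FPKM under PBS and 46 and 43.23 under NMDA. In JNK3 KO it had 15.63 and 17.08 FPKM under PBS and 43.45 and 42.93 under NMDA. The WT groups overlapped, whereas in both other genotypes the NMDA libraries were well above the PBS libraries and reached like levels. Cd44 rose 5.08-fold in shPax6 (log2 2.34, SE 0.10, adjusted p = 1.06e-06) and 2.63-fold in JNK3 KO (log2 1.40, SE 0.10, adjusted p = 0.000106). The WT difference was -0.02 (95% interval -0.26 to 0.21, adjusted p = 0.87), and its sign depended on the scaling, from -0.60 on TPM to 0.90 with the length correction.

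S100a6 and Anxa2 encode proteins that bind calcium and can bind each other. S100a6 in WT measured 335.76 and 319.9 FPKM with PBS, and 943.89 and 989.78 with NMDA. In shPax6 it measured 268.04 and 226.29 FPKM with PBS, and 655.54 and 564.29 with NMDA. In JNK3 KO it measured 469.24 and 418.43 FPKM with PBS, and 216.42 and 238.81 with NMDA. Levels after NMDA were higher in WT and shPax6 and lower in JNK3 KO, without overlap in any of them. S100a6 rose in WT (log2 1.56, SE 0.10, adjusted p = 1.59e-06) and in shPax6 (log2 1.304, SE 0.10, adjusted p = 2.27e-05). The JNK3 KO difference of -0.96 (SE 0.10, adjusted p = 0.000663) was just inside the fold limit, and was called at -1.05 without JNK3 KO PBS replicate 2 and at -1.03 without JNK3 KO NMDA replicate 2. Its leading transcript is the shortest of the 8, 464 bases, and the WT difference was 0.99 on TPM, 0.72 with the length correction and 0.27 with quantile normalization, none of them called.

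Anxa2 in WT measured 35.31 and 43.38 FPKM with PBS, and 111.55 and 119.52 with NMDA. In shPax6 it was at 14.6 and 11.5 FPKM under PBS and at 67.16 and 77.91 under NMDA. In JNK3 KO it was at 43.74 and 43.68 FPKM under PBS and at 46.86 and 43.06 under NMDA. The shPax6 libraries started lowest and ended between the JNK3 KO and WT libraries, and the JNK3 KO groups overlapped. Anxa2 rose 2.95-fold in WT (log2 1.56, SE 0.13, adjusted p = 9.35e-06) and 5.55-fold in shPax6 (log2 2.47, SE 0.13, adjusted p = 3.31e-06). In JNK3 KO the difference was 0.04 (95% interval -0.27 to 0.34, adjusted p = 0.916). The WT difference was 0.99 on TPM and 0.96 with the length correction, without a call.

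**Figure D2:**
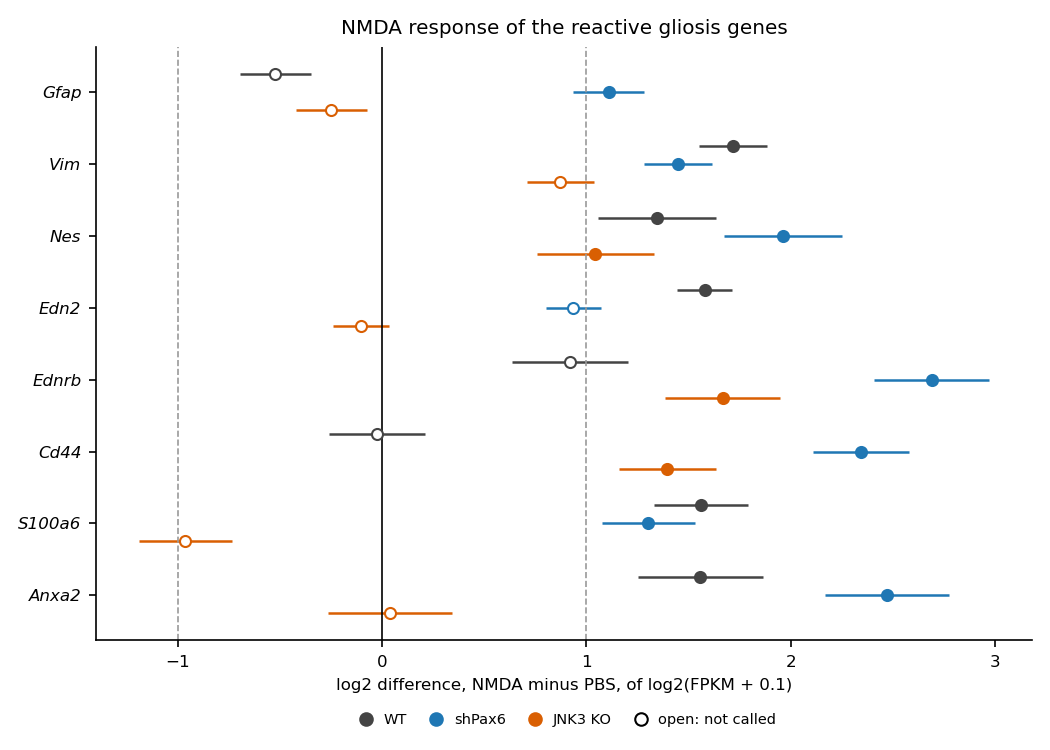
Log2 difference of NMDA minus PBS (horizontal axis, on log2(FPKM + 0.1)) for each gene (vertical axis) in WT, shPax6 and JNK3 KO, with 95% intervals, filled points where called and dashed lines at the fold limit of 1 in either direction. All 8 shPax6 points lie above 0, from 0.94 to 2.69, while S100a6 spans from -0.96 in JNK3 KO to 1.56 in WT.

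Whether the responses themselves differed was tested by the interaction contrasts. The WT response was below that of shPax6 for Gfap, by 1.63 (SE 0.11, adjusted p = 6.46e-06), for Ednrb, by 1.77 (SE 0.18, adjusted p = 5.76e-05), and for Cd44, by 2.37 (SE 0.15, adjusted p = 4.64e-06). These 3 of 8 members called down, with 0 called up, stand beside 21.7% of tested genes called down and 10.3% called up. All 3 calls held under TPM, 75th percentile scaling, quantile normalization and the length correction. The levels behind them differed. Ednrb in shPax6 was below WT under PBS (log2 -2.42) and still below it under NMDA (-0.65). Gfap (-0.78 and 0.85) and Cd44 (-1.16 and 1.21) were below WT under PBS and above it under NMDA. A larger response thus need not mean a higher level after NMDA. For Vim the difference of the 2 responses was 0.27 (95% interval 0.04 to 0.50, adjusted p = 0.0556) and for S100a6 it was 0.26 (95% interval -0.07 to 0.58, adjusted p = 0.168). Both of these changed sign with the scaling. Anxa2, at -0.91 (SE 0.19, adjusted p = 0.00355), was called on TPM (-1.44), with quantile normalization (-1.447) and with the length correction (-1.304), and also without WT PBS replicate 1 (-1.06), shPax6 PBS replicate 1 (-1.08) or shPax6 NMDA replicate 1 (-1.02).

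Against JNK3 KO the WT response was higher for S100a6, by 2.52 (SE 0.14, adjusted p = 1.58e-06), for Edn2, by 1.68 (SE 0.08, adjusted p = 9.28e-07), and for Anxa2, by 1.52 (SE 0.19, adjusted p = 0.00015), and lower for Cd44, at -1.42 (SE 0.15, adjusted p = 4.76e-05). The background of that contrast was 15.5% of tested genes called up and 20.1% called down. S100a6 kept its call under all 4 other scalings (1.18 to 2.43). Edn2 lost its call with quantile normalization (0.97) and the length correction (0.99), and Anxa2 on TPM (0.93), with quantile normalization (0.91) and with the length correction (0.81). With the length correction the Cd44 difference shrank to -0.39.

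The shPax6 response exceeded that of JNK3 KO for Anxa2, by 2.43 (SE 0.19, adjusted p = 6.96e-05), for S100a6, by 2.27 (SE 0.14, adjusted p = 2.07e-05), and for Gfap, by 1.36 (SE 0.11, adjusted p = 7.84e-05), and these 3 calls held under all 4 other scalings. Edn2 (1.04, SE 0.08, adjusted p = 8.84e-05) and Ednrb (1.02, SE 0.18, adjusted p = 0.005) were called close to the limit. Edn2 was under it in all 4 other scalings (0.73 to 0.97) and without shPax6 PBS replicate 2 (0.99) or JNK3 KO PBS replicate 1 (0.98), and Ednrb in 3 of them (0.75 to 0.98), with pseudocounts of 1 (0.65) and 0.5 (0.83), and without shPax6 NMDA replicate 2 (0.90), JNK3 KO PBS replicate 2 (0.998) or JNK3 KO NMDA replicate 2 (0.97). Just inside the limit were Cd44 (0.95), called without shPax6 PBS replicate 1 (1.08) or JNK3 KO PBS replicate 1 (1.01), and Nes (0.92), called without shPax6 NMDA replicate 1 (1.03). Both were also called with the length correction, at 1.04 and 1.09. In this contrast 6.61% of tested genes were called up and 2.17% down. The 3 contrasts share their groups in pairs, so they are not independent of each other.

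Without NMDA, the shPax6 retinas differed from WT in 5 of the 8 genes. Edn2 was higher, 2.50-fold (log2 1.32, SE 0.06, adjusted p = 4.43e-06). Ednrb was lower, 5.34-fold (log2 -2.42, SE 0.12, adjusted p = 8.45e-06), and so were Anxa2 (log2 -1.59, SE 0.13, adjusted p = 0.000103), Nes (log2 -1.23, SE 0.13, adjusted p = 0.000307) and Cd44 (log2 -1.16, SE 0.10, adjusted p = 0.000136). Gfap (-0.78), Vim (-0.77) and S100a6 (-0.41) had differences within the fold limit, with adjusted p of 0.000225, 0.000185 and 0.0237. Over all tested genes 0.522% were called up and 3.90% down in that comparison. All 5 calls held under the 4 other scalings. Of the 5, Nes alone lost its call in any other fit, with a pseudocount of 1 (-0.99) and with the spread taken from the groups compared alone.

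The JNK3 KO retinas did not differ from WT without NMDA in any of the 8 by this rule, against a background of 0.103% called up and 0.127% called down. By limma 1 of the 8 had an adjusted p under 0.05, Edn2 with a log2 difference of 0.46 (SE 0.06, adjusted p = 0.011). The share of all tested genes under that limit alone is not given here. The 95% intervals of Gfap (-0.14 to 0.21), Vim (-0.17 to 0.16), Nes (-0.24 to 0.33) and Ednrb (-0.28 to 0.29) spanned 0 within the fold limit. S100a6 was at 0.44 (95% interval 0.21 to 0.66, adjusted p = 0.078).

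Genotypes were also compared under NMDA, a comparison added after the data were seen. There the shPax6 retinas were higher than WT in Cd44 (log2 1.21, SE 0.10, adjusted p = 1.03e-05) and lower in Vim (log2 -1.04, SE 0.07, adjusted p = 2.89e-06), against backgrounds of 21.0% called up and 14.4% called down. Within the fold limit, Gfap (0.85) and Edn2 (0.68) were at higher levels than in WT. Anxa2 (-0.67), S100a6 (-0.67), Ednrb (-0.65) and Nes (-0.61) were at lower levels, also within it. JNK3 KO retinas were higher than WT in Cd44 (log2 1.16, SE 0.10, adjusted p = 1.21e-05) and lower in S100a6 (log2 -2.09, SE 0.10, adjusted p = 3.31e-07), Anxa2 (log2 -1.36, SE 0.13, adjusted p = 2.28e-05) and Edn2 (log2 -1.22, SE 0.06, adjusted p = 3.58e-07), with backgrounds of 19.5% up and 14.8% down. These comparisons use the WT NMDA libraries directly, and the calls moved with their scaling: for JNK3 KO, Edn2 and Anxa2 lost their calls on TPM (-0.69 and -0.83), with quantile normalization (-0.57 and -0.83) and with the length correction (-0.62 and -0.76), and S100a6 lost its call with quantile normalization (-0.93). The Cd44 differences in shPax6 and JNK3 KO were 0.37 and 0.25 with the length correction. The Vim difference in shPax6 was -0.54 on TPM, -0.04 with quantile normalization and -0.95 without shPax6 NMDA replicate 1. Other calls were gained. In shPax6, Gfap was called on TPM and with quantile normalization (up to 1.35). Edn2 was called there with these and with the length correction (up to 1.23). The length correction also gave calls of Nes (-1.62) and Ednrb (-1.24) in shPax6. In JNK3 KO, Ednrb was called on TPM (1.28) and Nes with the length correction (-1.37).

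**Figure D3:**
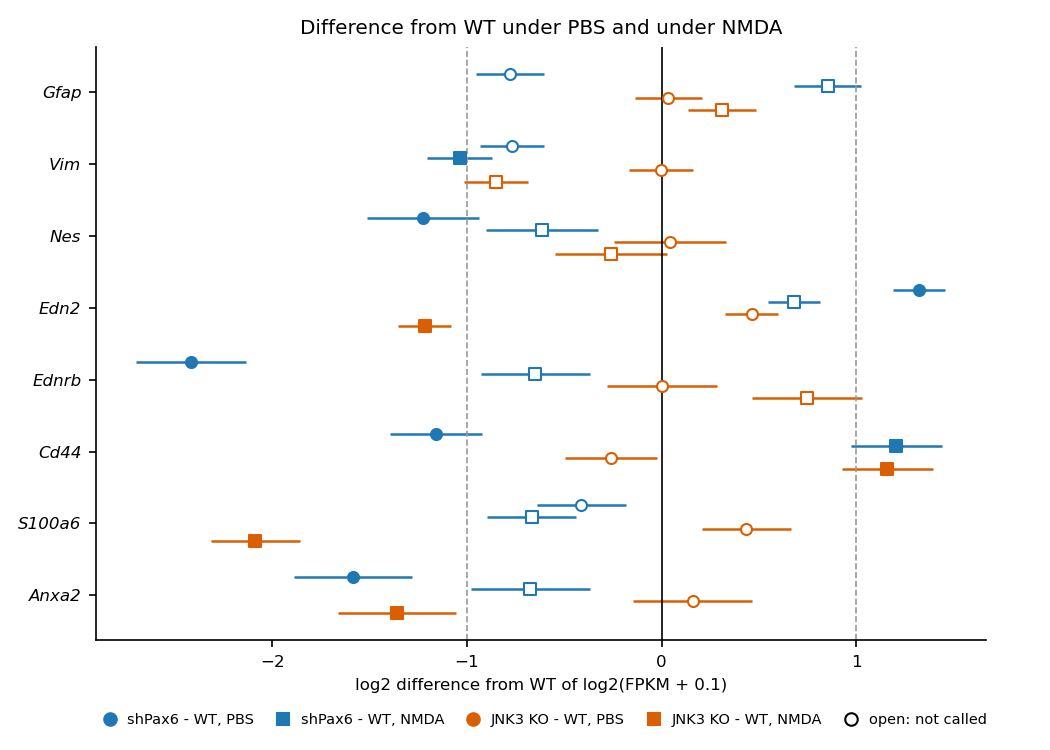
Log2 difference from WT (horizontal axis, on log2(FPKM + 0.1)) of shPax6 and JNK3 KO retinas under PBS (circles) and under NMDA (squares) for each gene, with 95% intervals, filled points where called and dashed lines at the fold limit. Under PBS the JNK3 KO points lie from -0.26 to 0.46, and under NMDA from -2.09 for S100a6 to 1.16 for Cd44.

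The 6 group levels were ordered on FPKM as deposited, and the top rank depended on that scaling. Under NMDA JNK3 KO was above WT for Vim with quantile normalization (log2 0.42) and for Nes on TPM (0.27). As deposited, the order was as follows. For Vim, Nes and Ednrb the PBS levels of WT and JNK3 KO overlapped between libraries and shPax6 PBS was lowest, and the NMDA groups filled the upper ranks, with WT first for Vim (mean 1162 FPKM) and Nes (15.1) and JNK3 KO first for Ednrb (32.0). For Gfap the order ran from shPax6 NMDA (100.4 FPKM) over JNK3 KO PBS (81.7) and WT PBS (79.8), which overlapped, to JNK3 KO NMDA (68.8), WT NMDA (55.5) and shPax6 PBS (46.6). S100a6 ended with shPax6 PBS (247 FPKM) and JNK3 KO NMDA (228), which overlapped. In Cd44 shPax6 NMDA (44.6 FPKM) and JNK3 KO NMDA (43.2) overlapped at the top, and WT PBS (19.6) and WT NMDA (19.3) below them.

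Transcripts of the same genes were also deposited. The 8 genes have 35 transcripts in that table, of which 21 had a group mean above 1 FPKM. After NMDA in WT 8 of the 21 were called up and 1 down, beside 8.91% up and 20.9% down of the 49940 transcripts tested. In shPax6 10 were called up and 0 down (background 3.25% and 2.71%), and in JNK3 KO 1 up and 1 down (background 0.288% and 0.368%). Edn2 has a single transcript. In Gfap and Anxa2 the transcripts Gfap-201 and Anxa2-201 held 90.8% to 93.7% and 87.2% to 99.9% of the gene's FPKM in every group.

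Cd44 was level in WT as a gene but not in its transcripts. Cd44-207, a protein-coding model of 5045 bases, went from 8.75 and 8.81 FPKM under PBS to 18.02 and 18.22 under NMDA in WT. Cd44-203, a protein-coding model of 2848 bases, went from 10.67 and 9.2 FPKM to 0.51 and 1.15. The first rose (log2 1.04, SE 0.13, adjusted p = 0.000557) and the second fell (log2 -3.52, SE 0.36, adjusted p = 0.000161). In shPax6 both rose, Cd44-207 by 2.48 and Cd44-203 by 2.30, and in JNK3 KO Cd44-207 rose by 1.42 while Cd44-203 was at 1.33 (adjusted p = 0.171). The WT response of Cd44-203 differed from that of shPax6 by -5.82 (SE 0.51, adjusted p = 0.000178) and from that of JNK3 KO by -4.85 (SE 0.51, adjusted p = 0.000308).

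In Vim the share of a short model moved. Vim-203, a retained-intron model of 535 bases, held 35.6% of the gene's FPKM in WT PBS and 55.9% in WT NMDA, while the coding Vim-201 of 2193 bases held 55.5% and 43.9%. Vim-203 rose by 2.37 (SE 0.14, adjusted p = 9.08e-06) and Vim-201 by 1.38 (SE 0.14, adjusted p = 0.000141) in WT. In shPax6 the rises were 1.304 and 1.55, and in JNK3 KO the differences were 0.58 (adjusted p = 0.127) and 0.89 (adjusted p = 0.0243), neither called. The response of Vim-203 was larger in WT than in shPax6 by 1.07 (SE 0.20, adjusted p = 0.00653).

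In S100a6 the coding model of 464 bases, S100a6-203, differed by treatment in every genotype. It was at 159.46 and 158.2 FPKM in WT PBS and 671.42 and 687.05 in WT NMDA, and at 280.12 and 250.76 in JNK3 KO PBS and 109.7 and 117.43 in JNK3 KO NMDA. It rose by 2.10 in WT (SE 0.11, adjusted p = 5.81e-06) and by 1.18 in shPax6 (SE 0.11, adjusted p = 0.000779) and fell by 1.22 in JNK3 KO (SE 0.11, adjusted p = 0.00272), whereas S100a6-201 of 731 bases was at 0.26 in WT (adjusted p = 0.63). In Nes, the model Nes-203 is listed at 0 in WT PBS, while the WT NMDA values are 5.72 and 4.07 FPKM, beside 9.82 and 10.53 for Nes-201. In WT Nes-203 was called up, whereas Nes-201 was at 0.78 (SE 0.35, adjusted p = 0.121 by limma) and not called. Short and overlapping models share reads, so RSEM divides reads among them by estimate, and the split between them is less certain than the gene's total.

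**Figure D4:**
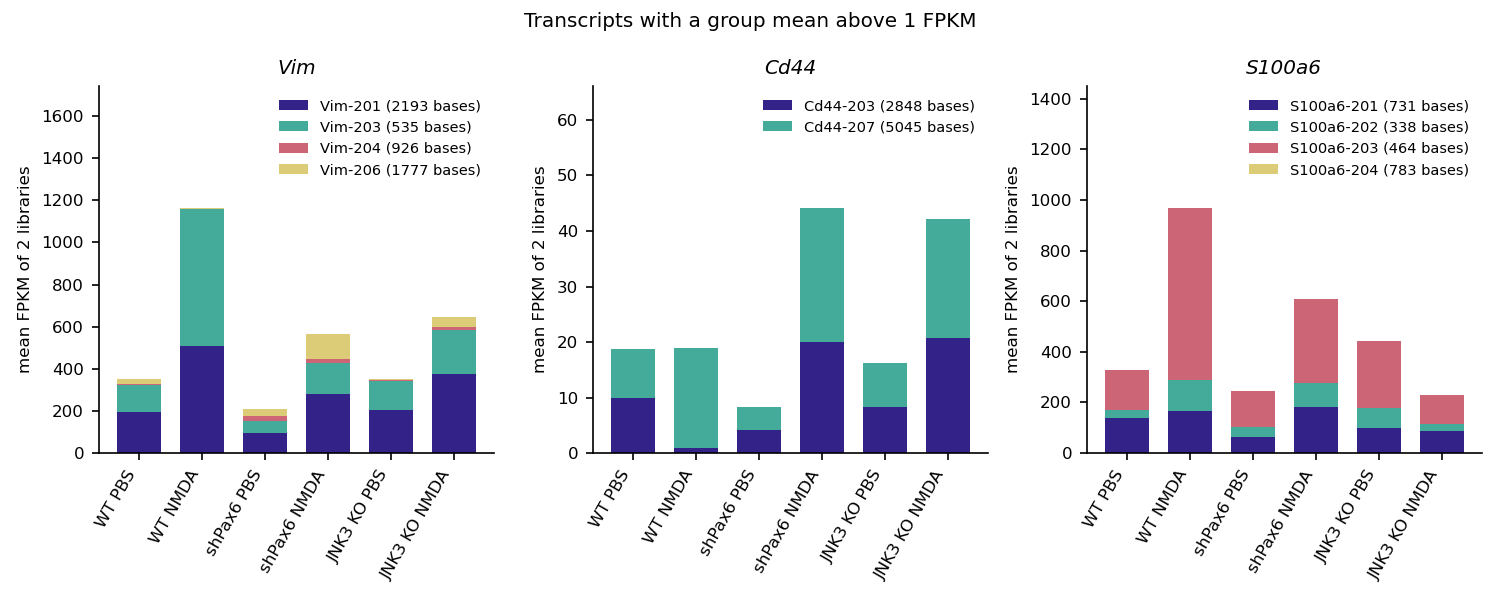
Mean FPKM of 2 libraries (vertical axis, from 0) of the transcripts of Vim, Cd44 and S100a6 by group (horizontal axis), stacked within each gene. Cd44-203 makes up 50.7% of the gene's FPKM in WT PBS and 4.3% in WT NMDA, and S100a6-203 48.4% and 70.3%.

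The number of WT responses that passed moved with the scaling. On TPM, where every library sums to the same total, the median of all tested genes moved from -0.09 to -0.66 and the calls in WT from 2347 up and 3441 down to 910 up and 5888 down. On TPM Vim (1.14) and Edn2 (1.01) kept their calls, while Nes, S100a6 and Anxa2 did not, and Gfap at -1.10 was called down. The direction of Vim, Nes, Edn2, Ednrb, S100a6 and Anxa2 was upward and that of Gfap downward under all 5 scalings, and only Cd44 changed sign. In shPax6 the values moved little, Cd44 from 2.22 to 2.34 and Ednrb from 2.49 to 2.69, and in JNK3 KO Ednrb stayed between 1.61 and 1.73 and S100a6 between -0.96 and -0.82.

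Over all tested genes the balance of calls moved by more than 10 percentage points in several comparisons. After NMDA in shPax6 it was 1423 up and 813 down, and 1051 and 1120 with quantile normalization. For shPax6 against WT it was 86 up and 643 down under PBS, and 180 and 448 with quantile normalization. Under NMDA that comparison had 3464 up and 2367 down, and 5560 and 1101 on TPM, and the one of JNK3 KO against WT had 3208 and 2433, and 5392 and 984 on TPM. For the responses, WT minus shPax6 had 1693 up and 3571 down, then 671 and 5929 on TPM and 1795 and 2186 with quantile normalization. WT minus JNK3 KO had 2557 and 3308, then 1132 and 5408 on TPM. The response of shPax6 minus JNK3 KO had 1089 and 357, then 935 and 504 with 75th percentile scaling and 837 and 658 with quantile normalization.

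**Figure D5:**
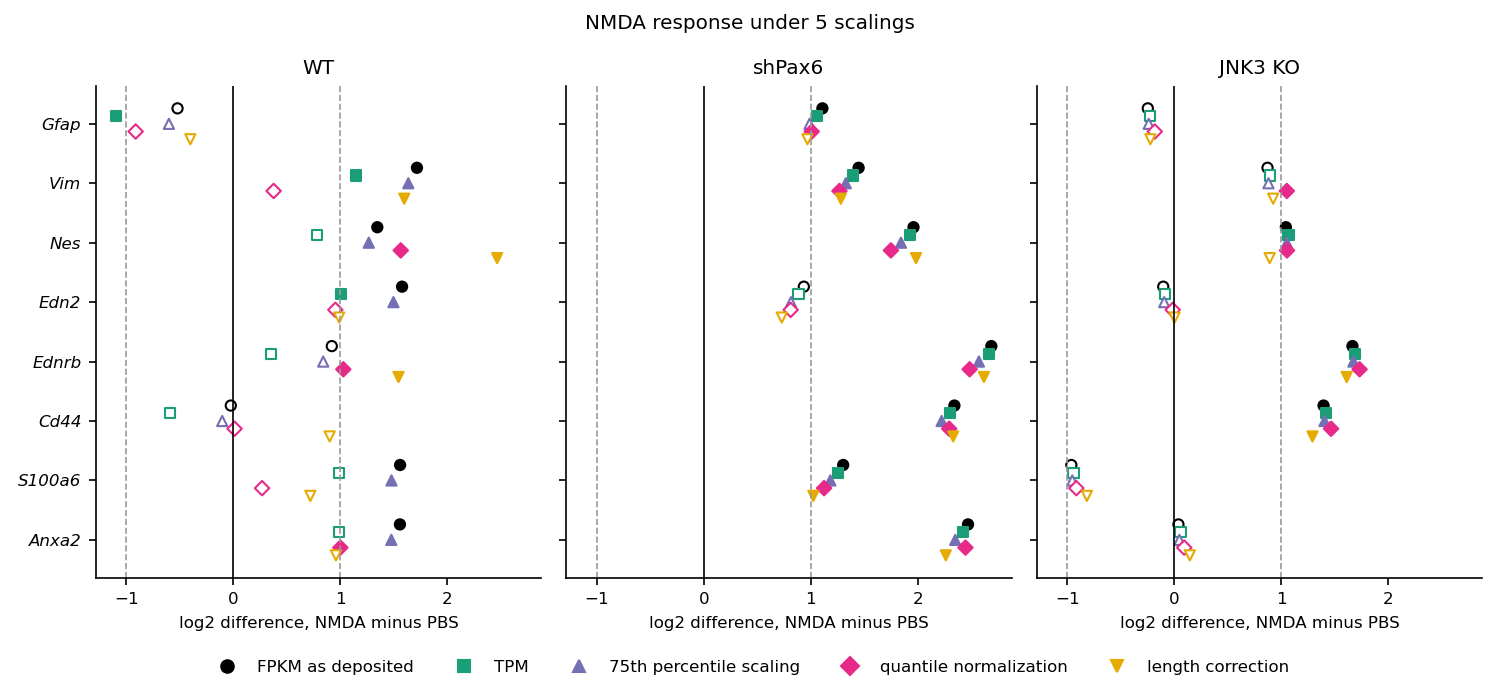
Log2 difference of NMDA minus PBS (horizontal axis) of each gene in WT, shPax6 and JNK3 KO with FPKM as deposited and under TPM, 75th percentile scaling, quantile normalization and a correction for transcript length, filled where called, with dashed lines at the fold limit. The WT points spread widely, S100a6 from 0.27 to 1.56 and Nes from 0.78 to 2.47, and those of the other genotypes lie close together.

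Lists of other genes of the same biology were counted the same way. Their counts, and those of the cell markers further below, stand beside the shares of all tested genes. After NMDA these were 14.2% called up and 20.9% down in WT, 8.64% and 4.94% in shPax6, and 0.777% and 1.87% in JNK3 KO. Among 16 other reactive gliosis genes, 4 were called up and 3 down in WT, 7 up and 1 down in shPax6, and 1 up and 4 down in JNK3 KO. The medians of the 16 were -0.56, 0.99 and -0.30, beside -0.09, 0.10 and -0.01 over all tested genes. In WT the largest called changes of the list were those of Lgals3 (log2 3.36), the galectin of phagocytes and reactive glia, Steap4 (-1.98), a metalloreductase, and Cebpd (1.44), an inflammatory transcription factor. Lgals3 rose in shPax6 by 4.84 and in JNK3 KO by 1.77, and Steap4 fell in JNK3 KO by 2.05 and was at 0.42 in shPax6. Of the 16, 4 were called lower in shPax6 than in WT under PBS, beside 3.90% of all tested genes.

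Of 6 other genes of the endothelin system 4 were tested, and in WT 1 was called up and 2 down, in shPax6 0 and 1, and in JNK3 KO 0 and 0. Ecel1 rose in WT (log2 1.72), and Ece1 (-1.60) and Ece2 (-1.51), which encode endothelin-converting enzymes, fell. The WT PBS libraries differed widely in Ece1, at 15.14 and 37.18 FPKM. Edn1 was at 0.51 to 1.7 FPKM in all 12 libraries, and Edn3 and Ednra stayed under 1 FPKM, so Edn2 and Ednrb were the pair of this system at appreciable level.

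Among 8 tested genes of other intermediate filaments, lamins and linkers (11 listed), 2 were called up and 1 down in WT, 2 up and 0 down in shPax6, and 0 either way in JNK3 KO. Krt18 (log2 1.65) and Lmna (1.38), which encodes lamin A, rose in WT, and Dst (-1.66), which encodes a very large linker protein, fell. Lmna also rose in shPax6 by 1.36 and was at 0.55 in JNK3 KO (adjusted p = 0.0303), not called.

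Of the 16 other annexin, S100 and partner genes, 6 were called up and 0 down in WT, in shPax6 7 up and 0 down, and in JNK3 KO 0 up and 1 down, with medians of 0.51, 0.96 and -0.06. S100a10, the binding partner of annexin A2, rose in WT (log2 2.40) and shPax6 (2.13) and was at 0.77 in JNK3 KO (adjusted p = 0.000629), not called. S100a11 rose by 1.88 in WT and by 2.09 in shPax6 and was at -0.35 in JNK3 KO, and S100a13 rose in WT (1.54) and shPax6 (1.15) and fell in JNK3 KO by 1.13.

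Of 13 hyaluronan genes and CD44 partners, 8 were tested, with 2 called up and 2 down in WT, 4 up and 0 down in shPax6, and 2 up and 0 down in JNK3 KO. Spp1, which encodes the CD44 ligand osteopontin, rose in WT (log2 1.39), shPax6 (3.89) and JNK3 KO (1.37). Cemip, a hyaluronan-degrading factor, and Rdx, which links CD44 to actin, fell in WT (-2.14 and -1.40) and in the other genotypes were at -0.73 and 0.09 in shPax6 and at -0.43 and 0.52 in JNK3 KO, none of them called.

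Markers of the cells that can hold these transcripts moved with the groups. In bulk tissue fewer cells of a type and less RNA per cell cannot be told apart. The summed FPKM of 10 Müller glia markers was 850.64 to 851.84 in WT PBS and 747.08 to 769.04 in WT NMDA, 1755 to 1833 and 2642 to 2823 in shPax6, and 933.01 to 962.97 and 912.31 to 926.49 in JNK3 KO, with no marker at 0. Apoe carried most of the shPax6 sums, at 979.88 and 916.06 FPKM under PBS and 1930 and 2084 under NMDA. In WT 0 of the 10 were called up and 4 down, in shPax6 2 up and 0 down, and in JNK3 KO 0 either way, and the medians of the list were -0.39, 0.39 and 0.37. In JNK3 KO Glul went from 279.4 and 272.94 FPKM to 171.02 and 174.64, so that the sum was lower while the median was above 0. The 5 astrocyte markers summed to 22.05 to 23.07 FPKM in WT PBS and 41.29 to 49.73 in WT NMDA, 10.53 to 12.58 and 31.76 to 33.37 in shPax6, and 18.55 to 19.93 and 51.48 to 52.96 in JNK3 KO. Aldh1l1 carried the sums in every group. It had 18.45 and 17.03 FPKM with PBS and 43.26 and 39.84 with NMDA in WT. In shPax6 it had 8.07 and 8.88 FPKM with PBS and 27.76 and 24.97 with NMDA. In JNK3 KO it had 15.88 and 14.86 FPKM with PBS and 48.46 and 46.59 with NMDA. Of the 3 astrocyte markers tested, 1 was called up and 1 down in WT, with a median of -0.09. In shPax6 and in JNK3 KO 1 was called up and 0 down, with medians of 1.63 and 0.37.

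Leukocyte markers also moved. Of 11 microglia and macrophage markers, whose cells also express Vim, Cd44, S100a6 and Anxa2, 3 were called up and 4 down in WT, 7 up and 0 down in shPax6, and 0 up and 4 down in JNK3 KO. Their summed FPKM was 143.48 to 154.99 in WT PBS and 274.81 to 279.13 in WT NMDA, 67.34 to 67.79 and 391.37 to 396.12 in shPax6, and 120.55 to 130.07 and 91.74 to 92.08 in JNK3 KO. The 7 neutrophil markers summed to 211.82 to 234.99 and 1948 to 1985 FPKM in WT, 5.16 to 6.55 and 66.41 to 73.0 in shPax6, and 155.4 to 169.26 and 13.12 to 14.21 in JNK3 KO, with Ngp at 0 in the shPax6 and JNK3 KO groups and Camp at 0 in shPax6 NMDA and JNK3 KO PBS. Their part in the results of the 8 genes was not tested. The 9 markers of ganglion cells, neurons sensitive to NMDA, summed to 564.43 to 584.61 in WT PBS and 316.12 to 335.05 in WT NMDA, 166.77 to 167.38 and 48.78 to 55.26 in shPax6, and 537.17 to 579.51 and 139.72 to 140.41 in JNK3 KO. By the median the order was another: 6 of the 9 were called down in WT (median -2.24), 7 in shPax6 (-2.60) and 5 in JNK3 KO (-1.92). Thy1 (135.95 and 153.62 FPKM) and Sncg (112.21 and 115.5) made up most of the WT NMDA sums.

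Markers of neighbouring tissue were summed too. The 7 lens markers summed to 50 to 155 FPKM, highest in WT NMDA (153.69 to 155), the 5 markers of pigment epithelium to 6.94 to 69.34, the 7 of endothelium and pericytes to 36.07 to 87.83 and the 4 of cornea to 0.05 to 2.7, beside 20855 to 36479 for the 8 rod markers. Their part in the results was not tested.

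As a description, the genes whose pattern over the 6 group means was most like that of each member were found by the smallest root mean square difference of centred log2 values, over 16471 genes. For Gfap these were Hyal3 (0.085) and Irgm2 (0.101), for Vim Nfkb2 (0.129) and Hbegf (0.140), for Nes Steap3 (0.157) and 4930556M19Rik (0.162), and for Edn2 H3c15 (0.133) and Ccnb2 (0.155). For Ednrb they were Nkain1 (0.279) and Pde2a (0.312), for Cd44 Cd93 (0.176) and Tmco4 (0.202), for S100a6 Zmynd10 (0.132) and Msrb1 (0.172), and for Anxa2 Higd1b (0.175) and Arpc1b (0.182). Among the members the closest pair was Vim and Nes at 0.245, and the nearest member to Gfap was Cd44 at 0.625. A search of 16471 genes finds nearer genes than a search of the few members, so these distances cannot be compared with those above.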

How the data were processed

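RNA-seq was analysed for 12 libraries of mouse retina in 6 groups of 2. The authors aligned reads to GRCm38.p6 with STAR 2.7.1a, estimated abundances with RSEM 1.3.3 and deposited gene and transcript FPKM, which are normalized to length and library and hold no read counts. Their own tests used edgeR 3.36.0 in R 4.1.0, which needs counts and was not used here. Every sample column was mapped to a library by its label. Genes (16471) and transcripts (49940) were kept where the mean of some group exceeded 1 FPKM. A model of 6 group means was fitted to log2(FPKM + 0.1) with limma 3.58.1 (lmFit, then eBayes with its trend option), run in R 4.3.3 after it was tested on simulated data. The comparisons of genotypes under NMDA were added after the data were seen. A fold change on this scale understates the change of low genes. Calls needed a Benjamini-Hochberg adjusted p under 0.05 over all features tested and an absolute log2 difference above 1. Figures used Python 3.11.15, pandas 2.3.3 and matplotlib 3.10.9.

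The 8 genes and the lists were chosen with earlier results of these data known, so no list is independent evidence. Named genes were the 8 members, Pax6 and Mapk10, in each list at most the 3 genes with the largest change among those called in WT, and the 2 genes most like each member. Named outside this rule, after their values were seen, were markers that carry a sum or are at 0 (Apoe, Glul, Aldh1l1, Thy1, Sncg, Ngp and Camp), the low Edn1, Edn3 and Ednra, and Timp1, Lcn2 and Hspb1. Gene lengths and transcript types came from GENCODE M21, which matched 55227 of 55487 genes, and promoters from RefSeq. The length of a gene is that of its transcript with the highest mean FPKM. Alternatives were pseudocounts of 1 and 0.5, no filter, TPM, 75th percentile and quantile scaling, a length correction (lowess, span 0.3), the spread of the compared groups alone, no intensity trend, a replicate block, no fold limit, unadjusted p and each library left out. Read totals per library are not given by these files.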

Additional observations from a re-analysis of the deposited data

Results flagged for a closer look

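For 12 values the NMDA response of a gene differed between genotypes by an interaction contrast in limma (called by the limits of the report). Between WT and shPax6 (WT minus shPax6) these were Gfap at -1.63, Ednrb at -1.77 and Cd44 at -2.37. Between WT and JNK3 KO (WT minus JNK3 KO) they were Edn2 at 1.68, Cd44 at -1.42, S100a6 at 2.52 and Anxa2 at 1.52. Between shPax6 and JNK3 KO (shPax6 minus JNK3 KO) they were Gfap at 1.36, Edn2 at 1.04, Ednrb at 1.02, S100a6 at 2.27 and Anxa2 at 2.43. The transcript Cd44-203, at 10.67 and 9.2 FPKM in WT PBS and 0.51 and 1.15 in WT NMDA, fell while the gene's total was nearly level.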

How the results depend on the processing

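Over 80 values of the 8 genes in 10 comparisons, 726 of 800 values under other settings and 944 of 960 with a library left out kept their direction and their side of the limits. The total mixes unlike settings. No filter, no intensity trend, the replicate block and the spread of the compared groups alone leave the log2 differences as they are. These kept 79 or 80 of 80 values each. TPM kept 60, quantile normalization 59 and the length correction 56 of 80. A value within its own SE was given no direction, so Cd44 after NMDA in WT counts as kept although it ran from -0.60 to 0.90. Under TPM the count of members called moved from 5 to 3 in WT, from 3 to 5 for WT minus shPax6 and from 5 to 3 for shPax6 minus JNK3 KO, and the last was 3 also with 75th percentile scaling and with quantile normalization. Quantile normalization gave 3 in WT, 2 for WT minus JNK3 KO and 1 for JNK3 KO against WT under NMDA. The length correction gave 3 in WT, 2 for WT minus JNK3 KO, 4 for shPax6 against WT under NMDA and 2 for JNK3 KO against WT under NMDA. With no fold limit the counts were 5 after NMDA in JNK3 KO, 8 for shPax6 and 1 for JNK3 KO against WT under PBS, 6 for WT minus shPax6, 8 for shPax6 minus JNK3 KO, and 8 and 7 for shPax6 and JNK3 KO against WT under NMDA. The shares of all tested genes without the fold limit are not given here. These counts therefore show only how the members depend on the limit. Reversed values were, for WT minus shPax6, Vim at -0.25 on TPM and -0.89 with quantile normalization, Nes at 0.48 with the length correction and S100a6 at -0.27 on TPM, -0.86 with quantile normalization and -0.30 with the length correction. For WT minus JNK3 KO they were Vim at -0.68 with quantile normalization and Nes at -0.29 on TPM. Under NMDA they were S100a6 at 0.28 in shPax6 and Vim at 0.42 in JNK3 KO with quantile normalization and Nes at 0.27 in JNK3 KO on TPM. The cause was not tested.

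Leaving out the libraries singly, the counts ran from 5 to 6 in WT, 6 to 7 in shPax6 and 3 to 4 in JNK3 KO, were 5 for shPax6 and 0 for JNK3 KO against WT under PBS, and ran from 3 to 4, were 4, and ran from 4 to 6 for the 3 differences of responses. They ran from 1 to 2 for shPax6 against WT under NMDA, with 1 without shPax6 NMDA replicate 1, and were 4 for JNK3 KO against WT under NMDA. The called transcripts after NMDA were 21, from 19 to 22 with a library left out, 21 with a pseudocount of 1 and 28 at an unadjusted p. For the unadjusted p the share of all tested transcripts is not given here. A library left alone in its group was assumed to vary like the others. Replicate numbers are shared by the groups, but deviations of libraries with the same number correlated by only -0.097 to 0.086, so the numbers do not pair the samples. With a replicate block the counts of members were 5 in WT, 7 in shPax6 and 3 in JNK3 KO, the same as without it, and the block changed no call of a member. The FPKM give no depth, so precision is limited to what 2 libraries a group show.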

Other observations

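From the list of 16 other gliosis genes, Timp1, Lcn2 and Hspb1 are singled out here after their values were seen. They do not stand for the list, of which 1 gene was called up and 4 down in JNK3 KO. Lgals3, of the same list, was at 16.69 and 15.69 FPKM in JNK3 KO PBS and 57.86 and 53.25 in JNK3 KO NMDA. Timp1, an inhibitor of matrix proteases, was at 177.79 and 181.79 FPKM in WT PBS and 144.69 and 142.48 in WT NMDA. It was at 36.73 and 30.96 FPKM in shPax6 PBS and 136.56 and 151.8 in shPax6 NMDA. It was at 210.57 and 210.92 FPKM in JNK3 KO PBS and 18.18 and 18.41 in JNK3 KO NMDA. Timp1 thus rose in shPax6 and fell in JNK3 KO, with log2 differences of 2.09 and -3.52 (adjusted p = 5.61e-07 and 8.8e-08 by limma) and a difference between those responses of 5.61 (SE 0.12, adjusted p = 3.02e-08).

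Lcn2, the iron-carrier lipocalin of reactive glia and neutrophils, was at 773.69 and 804.78 FPKM in WT PBS and 933.71 and 873.09 in WT NMDA, at 507.04 and 500.26 in shPax6 PBS and 2030 and 1997 in shPax6 NMDA, and at 585.51 and 562.56 in JNK3 KO PBS and 129.68 and 136.91 in JNK3 KO NMDA. Its level rose in shPax6 by 2.00 and fell in JNK3 KO by 2.11 on the log2 scale (adjusted p = 3.87e-08 and 8.8e-08). Hspb1, a small heat shock protein, rose in WT from 7.11 and 5.42 to 16.6 and 12.35 FPKM and in shPax6 from 7.44 and 5.25 to 76.92 and 61.15, and in JNK3 KO it stood at 5.34 and 4.68 with PBS and 5.09 and 4.01 with NMDA. The log2 differences were 1.19, 3.43 and -0.14 (adjusted p = 0.00177, 1.1e-05 and 0.791).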
